A study of Rattus norvegicus with 36 samples.

Results

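H9C2 cells, a myoblast line derived from embryonic rat heart, were transfected with Trim A, a mimic of the microRNA miR-125b that lacks the last adenosine at the 3′ end, and were then kept in hypoxia. The 3 Trim A libraries were compared with the 3 hypoxia libraries of cells that received the mimic control (MC), which makes 6 of the 36 samples in the series, 33 of which had counts used here. All hypoxia groups were dosed with 25 nmol/L of mimic for 24 h and then spent 24 h in hypoxia, in serum-free, low-glucose medium according to the methods of the study. The other hypoxia groups were miR-125b itself, Plus A (an added 3′ adenosine), Trim AG and Trim AGU (3′ ends shortened further), with 3 libraries each. H9C2 is a single established line, so no group holds more than 1 genetic background. RNA-seq gave gene-level read counts, with 31064299 to 34505938 counts per Trim A library and 29137206 to 30249626 per MC library. The comparison asks which transcripts differ in hypoxic cells that carry this isomiR. The sources used here do not state whether the replicates of a group came from separate cultures, so p-values measure the spread between libraries only.

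MicroRNAs guide the Argonaute complex to messenger RNAs mainly through the seed, the bases near the 5′ end that pair with a site on the target, and this usually lowers the target's mRNA and protein. Isoforms that differ at the 3′ end, called 3′ isomiRs, keep the seed and differ in the bases that can add pairing and that affect stability. MiR-125b is abundant in heart and muscle and is known as a regulator of apoptosis genes and of muscle differentiation. H9C2 myoblasts keep many features of skeletal muscle precursors: with confluence or serum withdrawal they leave the cell cycle, turn on myogenin and build sarcomeres.

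The sequences of miR-125b and of the shortened forms show what the mimics share. The mature rat miR-125b, which the paper on these data places at more than 1 locus, is 22 bases long. The RefSeq copy used here lies on chr11:29732588-29732609 of GRCr8, plus strand. Trim A and Trim AG are derived here by removing 1 and 2 bases from its 3′ end, which leaves 21 and 20 bases. Capitals mark the seed, bases 2 to 8 from the 5′ end, which is the same in all of them.
miR-125b: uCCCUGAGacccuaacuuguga
Trim A: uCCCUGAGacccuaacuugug
Trim AG: uCCCUGAGacccuaacuugu

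Trim A replicate 1 stood apart from the other Trim A libraries. The chi-square per gene between pairs of libraries was 79.7 for Trim A 1 and 2, 61.7 for 1 and 3, and 8.16 for 2 and 3, against 5.81 to 7.16 among the MC libraries. Trim A 1 held relatively more counts on long genes: its median log2 difference from Trim A 2 and 3 was 0.16 in the longest of 3 equal classes of genes and -0.15 in the shortest. Mitochondrially encoded genes took 3.41% of counts in Trim A 1, 5.01% in Trim A 2 and 4.47% in Trim A 3, against 3.58% to 3.78% in MC. By root mean square distance of log2 CPM, Trim A 1 lay nearer to the miR-125b libraries (0.479 to 0.502) and the Plus A libraries (0.484 to 0.529) than to Trim A 2 and 3 (0.550 and 0.546). The mean distance from the MC libraries was 0.827 for Trim A 1, 0.908 for Trim A 2 and 0.906 for Trim A 3. From the miR-125b libraries it was 0.489, 0.567 and 0.573. The counts of called genes are therefore also given without Trim A 1. Those counts keep only the Trim A libraries farther from MC and miR-125b, so they are not a neutral check. Which Trim A libraries are typical was not tested.

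**Figure D1:**
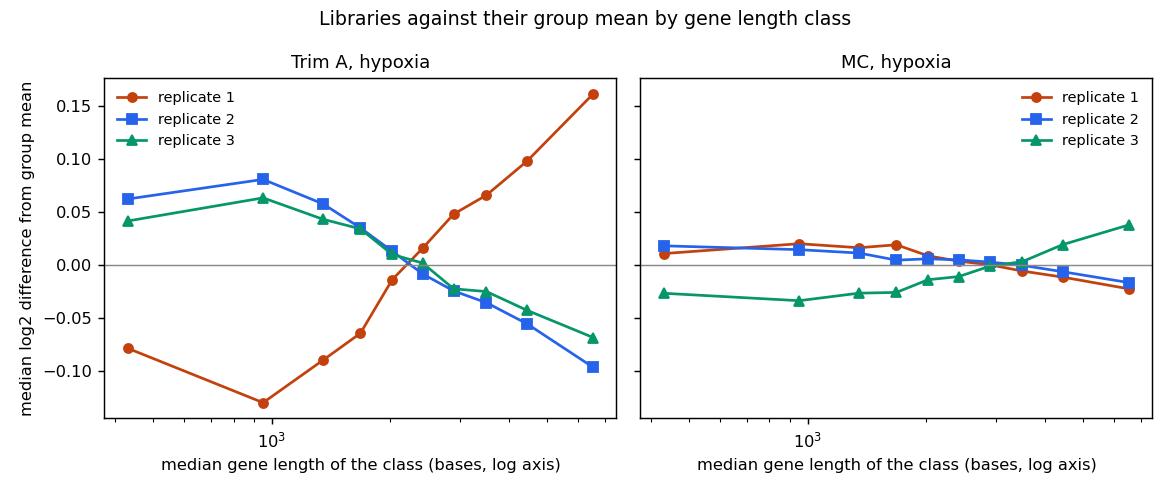
Median log2 difference of each library from its group mean (y axis) in 10 classes of genes ordered by length (x axis, median length in bases, log scale), for Trim A on the left and MC on the right; each line is 1 library. Trim A 1 runs from -0.08 in the shortest class to 0.16 in the longest, and the MC libraries stay between -0.03 and 0.04 in those classes.

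The labelled cell type was compared with marker lists. Of 10 myoblast markers, 9 averaged at least 1 CPM (read counts scaled to library size with TMM factors over all libraries), and Myf5 was at 0 in all 6 libraries. Their summed level was 3820 to 3940 CPM in Trim A and 4974 to 5138 CPM in MC. Against MC 6 of 9 tested myoblast markers were called lower and 0 higher, with a median log2 fold change of -0.74. Of 13 cardiac markers only 5 reached 1 CPM: Tnnt2, Actc1, Gata4, Hand2 and Tnni3. Tbx20 was at 0 in every library, and the summed cardiac level was 47.6 to 50.9 CPM in Trim A against 329 to 348 CPM in MC. Tnnt2 and Actc1 made up most of that sum and were the 2 of 7 tested cardiac markers called lower, and the median log2 fold change of the 7 was 0.47. Fibroblast markers were abundant (9 of 11 reached 1 CPM), with sums of 28898 to 45185 CPM in Trim A and 34572 to 35050 CPM in MC. Among 9 tested, 3 were called lower and 1 higher (median log2 fold change -0.28). Leukocyte markers summed to 2.09 to 3.79 CPM in Trim A and 3.25 to 4.59 CPM in MC, with Adgre1 at 0. Among 4 tested, 1 was called lower and 0 higher (median log2 fold change -0.65). Endothelial markers summed to 41.5 to 45.2 CPM in Trim A and 37.5 to 43.2 CPM in MC, with Emcn at 0. The sum hides single members: among 3 tested, 2 were called lower and 0 higher (median log2 fold change -0.84). The part of other cell types in the results was not tested.

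Against MC, 15183 genes were tested with edgeR's quasi-likelihood test. Calls required an adjusted p (Benjamini-Hochberg, over all tested genes) under 0.05 together with a 1.5-fold difference or more. In Trim A 1879 genes were higher (12.4% of those tested) and 2385 were lower (15.7%). The counts of called genes in each list against MC are to be read beside these shares. Without Trim A 1 the counts were 2246 and 2829. The median log2 fold change of all tested genes was 0.0027. It varied with gene length, from 0.149 in the shortest of 3 equal classes to 0.0143 in the middle and -0.131 in the longest. Genes called higher had a median length of 1856 bases and genes called lower 2644 bases, against 2207 bases for all tested genes. The cause of this trend was not tested. In whole-culture RNA, fewer cells of a kind and less RNA per cell cannot be told apart.

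The genes named for the largest falls, all averaging 1 CPM or more, were mostly genes of the muscle fibre. Srl, which encodes the calcium-binding protein sarcalumenin, was at 0.031, 0.093 and 0 CPM in Trim A and at 5.22, 5.99 and 6.70 CPM in MC. Sln, which encodes the calcium pump inhibitor sarcolipin, was at 0, 0.12 and 0.028 CPM against 3.86, 4.63 and 3.58 CPM. Actc1, cardiac alpha-actin, was at 0.34, 0.37 and 0.14 CPM in Trim A and at 31.8, 30.2 and 33.2 CPM in MC. The naming rule admits only genes whose groups do not overlap, which held for 60.9% of all tested genes and 99.0% of called genes. The log2 fold changes were -7.07 (SE 0.45) for Srl, -6.20 (SE 0.50) for Sln and -6.78 (SE 0.21) for Actc1, with edgeR adjusted p-values of 1.5e-05, 4.1e-05 and 7.6e-07. Ckmt2 (mitochondrial creatine kinase), Csrp3 (muscle LIM protein), Xirp1, Myh3 (embryonic myosin heavy chain), Hfe2 (hemojuvelin) and Myl1 had log2 fold changes between -5.47 and -4.69.

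**Figure D2:**
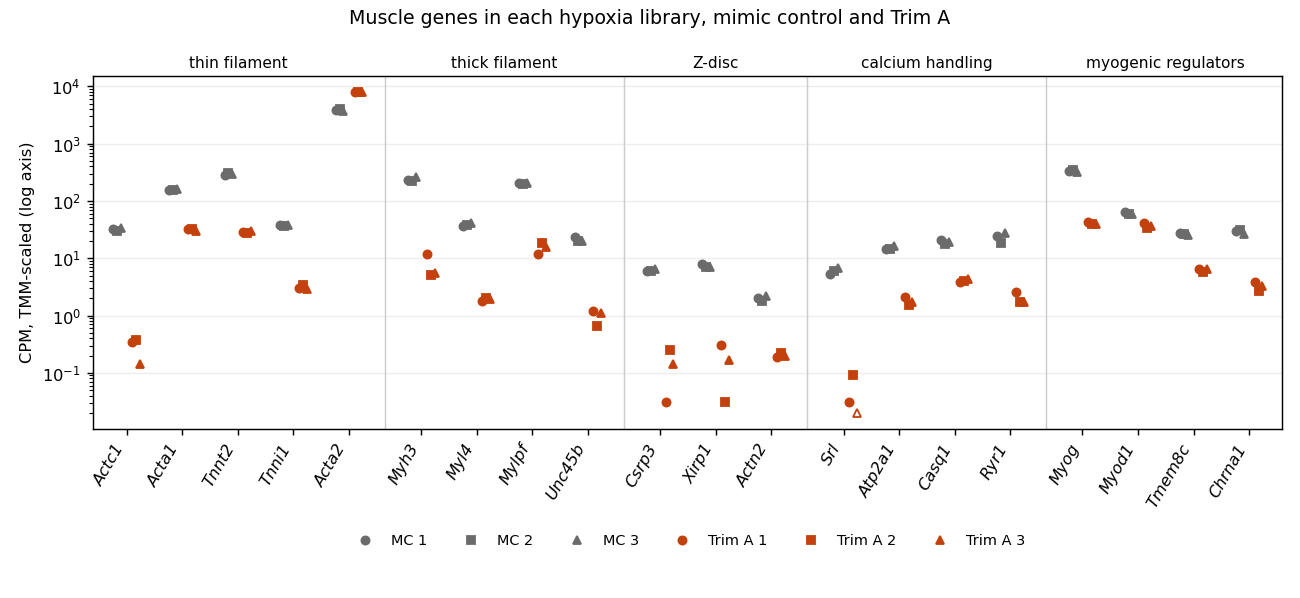
TMM-scaled CPM (y axis, log scale) of muscle genes grouped by role (x axis) in the 3 MC libraries (grey) and the 3 Trim A libraries (orange), with marker shape for replicate number; the open triangle marks a value of 0, drawn at the bottom. All genes but Acta2 lie lower in every Trim A library, and Acta2 lies higher in all 3.

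Among the 19 tested thin filament genes, 11 fell and 4 rose, with a median log2 fold change of -1.30, and without Trim A 1 the counts were the same. Tnnt2, cardiac troponin T, read 28.8, 27.9 and 29.8 CPM in Trim A and 282, 303 and 293 CPM in MC, a 10.0-fold fall (log2 fold change -3.33, SE 0.071, edgeR adjusted p = 2.1e-07). All 3 Trim A libraries lay far below the lowest MC library. Tnni1, slow troponin I, fell from 37.5, 36.4 and 38.1 CPM to 3.05, 3.45 and 2.96 CPM (log2 fold change -3.55, SE 0.094). Acta1, skeletal alpha-actin, fell from 158, 154 and 164 CPM to 31.8, 31.9 and 29.6 CPM (log2 fold change -2.33, SE 0.069). The 4 that rose were Acta2, Tpm2, Tpm3 and Tmod4. Acta2, smooth muscle actin, which myoblasts also make before they differentiate, rose from 3877, 3956 and 3716 CPM to 7826, 8118 and 8076 CPM (log2 fold change 1.07, SE 0.062). Acta1, Acta2 and Actc1 are close paralogs, and how the counting divided shared reads among them was not examined.

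Thick filament genes gave the lowest list median, -2.55, with 13 of 19 tested members lower and 0 higher. Without Trim A 1 the same numbers were called. Myh3 read 11.8, 5.17 and 5.45 CPM in Trim A and 233, 219 and 261 CPM in MC (log2 fold change -4.98, SE 0.30). Its highest Trim A value was in replicate 1. Myl4, the embryonic and atrial light chain, fell from 36.8, 37.7 and 40.8 CPM to 1.83, 1.99 and 1.98 CPM (log2 fold change -4.29, SE 0.097), and Mylpf, the fast regulatory light chain, from 208, 196 and 203 CPM to 11.9, 18.2 and 15.6 CPM (log2 fold change -3.71, SE 0.15). Unc45b, the chaperone that folds muscle myosin, had a log2 fold change of -4.40 (SE 0.20). Myh7b stood at 17.8, 12.4 and 15.3 CPM against 11.3, 9.01 and 10.4 CPM and did not reach the 1.5-fold limit.

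At the Z-disc and the costamere, where filaments are anchored, 12 of 23 tested genes fell and 1 rose, with a median of -0.78 and the same counts without Trim A 1. Csrp3 was at 0.031, 0.25 and 0.14 CPM in Trim A against 5.95, 5.92 and 6.37 CPM in MC, and Actn2, the actinin that crosslinks thin filaments, fell from 1.99, 1.8 and 2.18 CPM to 0.186, 0.218 and 0.198 CPM (log2 fold change -3.27, SE 0.26). Ankrd2, a stretch-responsive partner of titin, was the member that rose (log2 fold change 1.46, SE 0.23). Abundant members of the list that were not called were Flnc, at 831 to 1296 CPM in Trim A and 1027 to 1107 CPM in MC, and Fhl1, at 786 to 879 CPM and 934 to 979 CPM.

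Of 22 tested calcium handling genes 14 fell and 0 rose (median -1.07, and 15 fell without Trim A 1). The release channel Ryr1 fell from 24.1, 18.6 and 27.1 CPM to 2.61, 1.74 and 1.75 CPM, a log2 fold change of -3.50 (SE 0.21). The fast-muscle calcium pump Atp2a1 fell from 14.8, 14.8 and 16.2 CPM to 2.11, 1.53 and 1.75 CPM (log2 fold change -3.07, SE 0.15). Atp2a2, the pump of cardiac and non-muscle cells, read 613, 459 and 484 CPM against 507, 511 and 518 CPM, and its groups overlapped. Casq1, the fast calsequestrin, fell (log2 fold change -2.22, SE 0.12), while Casq2, the cardiac form, had a log2 fold change of -0.24 and was not called.

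The transcription factors and membrane proteins that mark muscle differentiation were lower too: 13 of 20 tested myogenic regulators fell and 0 rose, with a median of -0.81 (14 fell without Trim A 1). Myog, which encodes myogenin and switches myoblasts into differentiation, read 42.8, 39.6 and 40.1 CPM in Trim A and 339, 344 and 324 CPM in MC. That is an 8.13-fold fall (log2 fold change -3.02, SE 0.071, edgeR adjusted p = 2.1e-07), with the groups far apart. Myod1, which acts earlier and specifies the lineage, fell from 63.6, 59.3 and 58.3 CPM to 42.0, 33.7 and 36.2 CPM (log2 fold change -0.68, SE 0.091). Tmem8c, which encodes the fusion protein myomaker, fell by 2.06 on the log2 scale (SE 0.090). The acetylcholine receptor subunits Chrnd and Chrna1 had log2 fold changes of -3.66 (SE 0.19) and -3.13 (SE 0.14). Musk, Srf, Mef2d and Id1 were not called.

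Muscle energy enzymes followed with 7 of 13 tested members lower and 0 higher (median -0.84, the same counts without Trim A 1). The oxygen store myoglobin, Mb, fell from 2.72, 3.22 and 3.45 CPM to 0.44, 0.53 and 0.48 CPM (log2 fold change -2.67, SE 0.21). Pfkm, the muscle phosphofructokinase, fell from 122, 115 and 120 CPM to 61.2, 50 and 53.1 CPM (log2 fold change -1.10, SE 0.086).

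**Figure D3:**
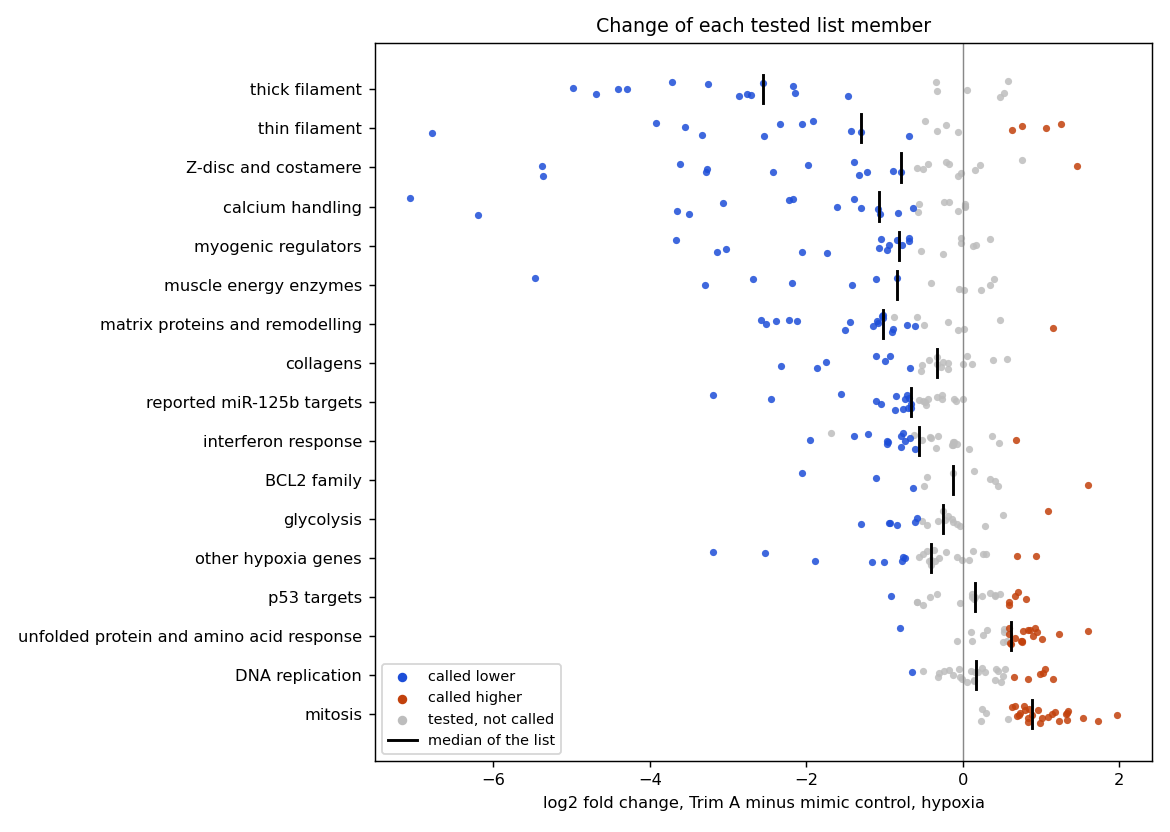
Log2 fold change of Trim A minus MC in hypoxia (x axis) for each tested member of 17 gene lists (rows): points are genes, blue called lower, orange called higher, grey not called, and the black bar is the list median. Medians run from -2.55 for the thick filament to 0.89 for mitosis.

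Genes of mitosis moved the other way. Of 29 tested members 25 rose and 0 fell, with a median of 0.89, and 26 rose without Trim A 1. Prc1, which bundles microtubules of the central spindle, read 86.6, 101 and 94.6 CPM in Trim A and 28.5, 30 and 27.4 CPM in MC, a 3.32-fold rise (log2 fold change 1.73, SE 0.081, edgeR adjusted p = 4.6e-06). Birc5, survivin, a member of the chromosomal passenger complex, rose from 8.16, 7.11 and 7.64 CPM to 26.4, 31.8 and 31.0 CPM (log2 fold change 1.98, SE 0.11). The spindle motor Kif11 and the spindle assembly factor Tpx2 had log2 fold changes of 1.33 (SE 0.072) and 1.33 (SE 0.095). Aurkb, Cdca3, Cenpe and Cdc25c, the 4 members not called, had values of 0.23 to 0.58.

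Of 30 tested DNA replication genes 6 rose and 1 fell (median 0.18, and 8 rose and 0 fell without Trim A 1). Among those that rose were the licensing factors Cdt1 (log2 fold change 0.83, SE 0.10) and Orc1 (1.05, SE 0.14), and the flap endonuclease Fen1 fell (-0.64, SE 0.12). Among 22 regulators of G1, 3 rose and 2 fell (3 and 3 without Trim A 1), against 12.4% and 15.7% of all tested genes. Myc read 46.0, 48.0 and 44.7 CPM against 23.6, 23.2 and 20 CPM (log2 fold change 1.07, SE 0.083), and the CDK inhibitor Cdkn2b read 53.3, 53.1 and 50 CPM against 113, 106 and 107 CPM (log2 fold change -1.04, SE 0.066).

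Genes of the unfolded protein and amino acid responses, which slow translation and raise chaperones and amino acid supply, rose in 17 of 27 tested cases and fell in 1 (median 0.61, the same counts without Trim A 1). Ddit3, the stress transcription factor CHOP, read 214, 294 and 280 CPM in Trim A and 90.4, 88.9 and 84.1 CPM in MC (log2 fold change 1.6, SE 0.12), with replicate 1 the lowest of the Trim A libraries. Trib3, a target and inhibitor of that pathway, rose from 223, 217 and 208 CPM to 477, 513 and 513 CPM (log2 fold change 1.23, SE 0.070). Slc3a2, the heavy chain of amino acid transporters, rose from 413, 418 and 393 CPM to 766, 769 and 761 CPM (log2 fold change 0.92, SE 0.064). Shmt2 of mitochondrial one-carbon metabolism had a log2 fold change of 0.77 (SE 0.063). Slc7a11, the cystine transporter, was the member that fell (-0.80, SE 0.068). With the gene-length trend taken out, the Slc7a11 value was -0.55 and no longer reached 1.5-fold.

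Of 28 tested interferon response genes 12 fell and 1 rose (median -0.56, and 11 fell without Trim A 1). Among all tested genes 15.7% fell and 12.4% rose. Parp9 read 20.5, 21.5 and 21.2 CPM in Trim A and 41.3, 42.4 and 40.9 CPM in MC (log2 fold change -0.96, SE 0.065). Stat2, a transcription factor of the interferon signal, fell by 0.78 on the log2 scale (SE 0.077). Irf3 had a log2 fold change of -0.73 (SE 0.069), and Rtp4 was the member that rose (0.68, SE 0.22). A further 9 members, among them Mx1 and Rsad2, had too few counts to be tested.

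**Figure D4:**
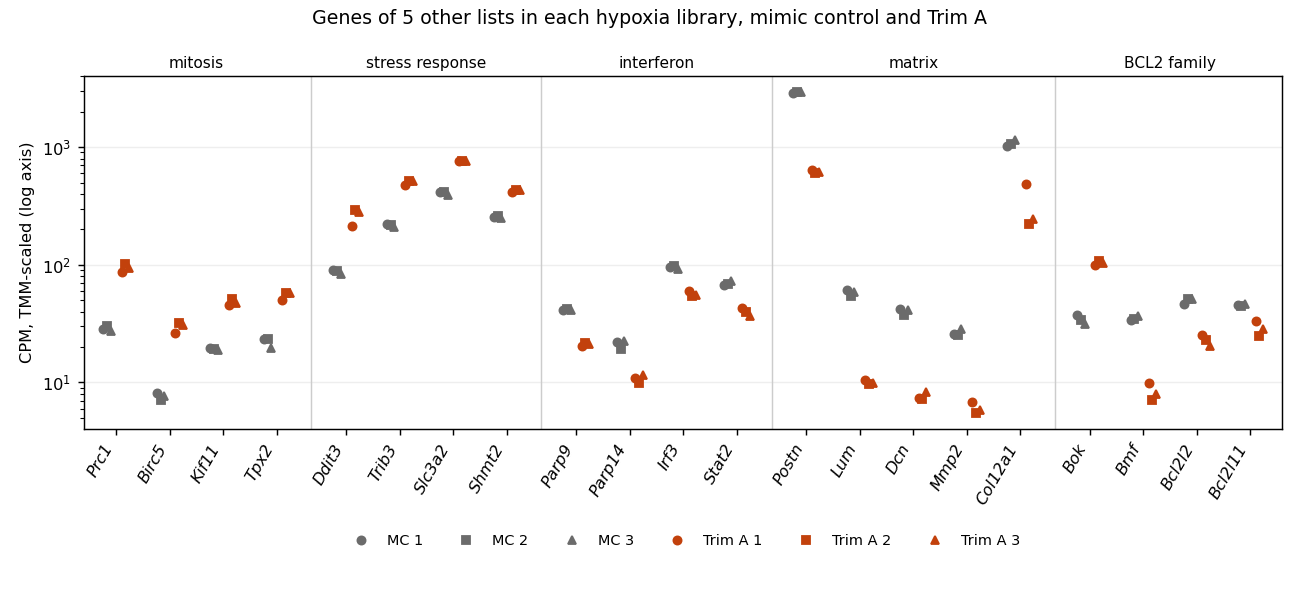
TMM-scaled CPM (y axis, log scale) of genes from 5 other lists (x axis) in the 3 MC libraries (grey) and 3 Trim A libraries (orange), with marker shape for replicate number; the stress response heading stands for the unfolded protein and amino acid response list. Mitosis and stress response genes lie higher in every Trim A library, interferon and matrix genes lie lower, and in the BCL2 family Bok lies higher and the other 3 lie lower.

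Matrix genes were the other large group that fell, with 17 of 25 tested matrix proteins and remodelling enzymes lower and 1 higher (median -1.01, and 19 lower without Trim A 1). Postn, periostin, fell from 2860, 2964 and 2941 CPM to 639, 599 and 617 CPM (log2 fold change -2.22, SE 0.066). The small proteoglycans Lum and Dcn fell by 2.52 (SE 0.078) and 2.38 (SE 0.093) on the log2 scale, and the proteoglycan Fmod rose (1.16, SE 0.25). Among collagens 7 of 21 fell and 0 rose with all libraries, and 11 fell without Trim A 1. The shares over all tested genes were 15.7% lower and 12.4% higher. Col12a1 read 484, 221 and 247 CPM in Trim A and 1027, 1055 and 1142 CPM in MC, with replicate 1 the highest of the Trim A libraries. Col1a1, the main chain of type I collagen, read 23128, 11307 and 12715 CPM against 14605 to 15643 CPM, and its groups overlapped.

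Of 25 tested genes that have been described as miR-125b targets, 14 were lower and 0 higher, with a median of -0.66, and 18 were lower without Trim A 1. The shares over all tested genes were 15.7% lower and 12.4% higher. Erbb3, a receptor of the EGF family, read 1.90, 1.00 and 1.89 CPM in Trim A and 9.30, 8.21 and 8.98 CPM in MC (log2 fold change -2.45, SE 0.24). Bcl2l2, which encodes the survival protein BCL-w, fell from 46.6, 51.2 and 50.7 CPM to 25.3, 22.8 and 20.4 CPM (log2 fold change -1.10, SE 0.091). Cbfb, partner of the RUNX factors, and the deacetylase Sirt7 had log2 fold changes of -0.87 (SE 0.069) and -0.85 (SE 0.082). Erbb2 at 0.0068 and Arid3b at -0.11 were among the members nearest to no difference. The level of the transfected mimic itself was not analysed here.

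Of the 15 tested genes that the paper on these data names, 8 were lower and 1 higher (9 and 1 without Trim A 1). Among all tested genes 15.7% were lower and 12.4% higher. Tnnt2 was picked there from these libraries and is not independent evidence, while most others were taken as predicted apoptosis-related targets, Klf13 was cited from earlier work and Actb was a reference gene. Bmf, a pro-apoptotic BH3-only protein, read 9.98, 7.10 and 7.96 CPM in Trim A and 33.8, 34.7 and 36.8 CPM in MC, a 4.16-fold fall (log2 fold change -2.06, SE 0.12). Bcl2l11, which encodes the BH3-only protein BIM, had a log2 fold change of -0.63 (SE 0.10), and -0.47 with the gene-length trend taken out. Tnfrsf1b, the type 2 TNF receptor, was low in all libraries, at 0.25 to 0.47 CPM against 1.33 to 1.74 CPM. Tp53inp2, an autophagy and nuclear receptor cofactor, fell from 138, 142 and 143 CPM to 79.4, 74.3 and 70.9 CPM, and Tp53inp1 had a value of -0.58 (SE 0.087), just under the fold limit. Traf6, Klf13 and Actb were the other members that fell besides Tnnt2. Bak1 stood at -0.49 (edgeR adjusted p = 0.00049) and Casp2 at -0.46 (edgeR adjusted p = 0.00097), both short of 1.5-fold. Hif1an and Dram2 were at 0.26 (SE 0.092) and 0.095 (SE 0.10) and were not called.

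The BCL2 family as a whole, which holds both death and survival members, had 1 gene higher and 3 lower of 11 tested (median -0.12, the same counts without Trim A 1). Bok, a pro-apoptotic member, rose from 37.5, 34.1 and 31.3 CPM to 99.1, 107 and 103 CPM (log2 fold change 1.6, SE 0.083). The members that fell were Bmf and Bcl2l11, which promote death, and Bcl2l2, which opposes it. Among 28 caspases, death receptors and their adaptors, 3 rose and 6 fell (5 and 7 without Trim A 1), beside 12.4% and 15.7% of all tested genes. The inflammatory caspase Casp4 read 119, 155 and 142 CPM against 76.7, 74.6 and 70.7 CPM (log2 fold change 0.93, SE 0.10).

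Hypoxia-responsive genes were measured under hypoxia in both groups. Of 19 tested glycolysis genes 6 were lower and 1 higher (median -0.26), and of 26 other hypoxia genes 8 were lower and 2 higher (median -0.40, and 9 and 1 without Trim A 1). Over all tested genes 15.7% were lower and 12.4% higher. Without Trim A 2 only 3 glycolysis genes were called lower. Gpi, which isomerises glucose 6-phosphate, fell from 596, 600 and 577 CPM to 322, 289 and 302 CPM (log2 fold change -0.94, SE 0.069), and the mitochondrial gatekeeper Pdk1 had a log2 fold change of -0.84 (SE 0.079). Angptl4, a lipase inhibitor, fell from 28, 26.0 and 26.3 CPM to 4.20, 5.23 and 4.35 CPM (log2 fold change -2.53, SE 0.11). Hmox1, heme oxygenase 1, rose from 539, 528 and 507 CPM to 911, 1036 and 1038 CPM (log2 fold change 0.94, SE 0.078). Hif1a, the oxygen-regulated factor itself, read 122, 124 and 124 CPM against 132, 121 and 122 CPM, with overlapping groups.

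The 10 genes named for their rises (called genes with a symbol, groups that do not overlap and an average of 1 CPM or more) were at under 10 CPM in every library of both groups. Lrmp, an endoplasmic reticulum membrane protein, read 4.38, 3.58 and 3.47 CPM in Trim A and 0.22, 0.42 and 0.26 CPM in MC (log2 fold change 3.67, SE 0.27). Misp, a spindle and actin protein, and Gprc5d, an orphan receptor, had log2 fold changes of 3.46 (SE 0.27) and 3.40 (SE 0.23). Tert, the catalytic subunit of telomerase, read 2.77, 3.05 and 2.29 CPM against 0.38, 0.32 and 0.16 CPM (log2 fold change 3.22, SE 0.31). Tmem116, Stab1, Amhr2, Mef2b and Grb7 ranged from 2.83 to 3.34. Cd151, a tetraspanin, had the highest fitted value of the 10 (3.73, SE 0.90), but replicate 2 gave 0.90 CPM in Trim A and 0.84 CPM in MC, against 6.18 and 6.97 CPM in the other Trim A libraries.

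The promoters of genes in 4 of these groups are shown for the best measured members that held a listed motif, as the 250 bases before the RefSeq start in GRCr8, with motif matches on either strand in capitals. The muscle E-box CAGCTG, bound by MyoD and myogenin, was searched in sarcomere and calcium handling genes. The cell cycle homology region TTTGAA and the CCAAT box CCAAT were searched in mitosis genes, the interferon element GAAANNGAA in interferon genes and the core TGATGNAA of the C/EBP-ATF element in stress response genes. No matches of different motifs overlap in the stretches printed.
Tnnt2 (chr13:49818873-49819122, plus strand): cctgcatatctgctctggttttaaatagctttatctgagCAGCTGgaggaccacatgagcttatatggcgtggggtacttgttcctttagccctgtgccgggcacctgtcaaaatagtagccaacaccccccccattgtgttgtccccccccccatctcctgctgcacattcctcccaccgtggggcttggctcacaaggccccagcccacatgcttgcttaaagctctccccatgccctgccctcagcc
Prc1 (chr1:143659231-143659480, plus strand): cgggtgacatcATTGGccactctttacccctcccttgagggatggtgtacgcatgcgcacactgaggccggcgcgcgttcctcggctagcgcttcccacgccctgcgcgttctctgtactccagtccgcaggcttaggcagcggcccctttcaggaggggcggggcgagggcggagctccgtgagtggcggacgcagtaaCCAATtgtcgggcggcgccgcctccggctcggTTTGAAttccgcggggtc
Parp14 (chr11:78407884-78408133, plus strand): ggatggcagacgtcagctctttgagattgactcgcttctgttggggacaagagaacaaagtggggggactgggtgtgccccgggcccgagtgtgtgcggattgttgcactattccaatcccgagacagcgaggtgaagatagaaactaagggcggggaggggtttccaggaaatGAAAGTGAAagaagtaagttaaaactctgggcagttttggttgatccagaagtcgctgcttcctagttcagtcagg
Trib3 (chr3:161275534-161275783, minus strand): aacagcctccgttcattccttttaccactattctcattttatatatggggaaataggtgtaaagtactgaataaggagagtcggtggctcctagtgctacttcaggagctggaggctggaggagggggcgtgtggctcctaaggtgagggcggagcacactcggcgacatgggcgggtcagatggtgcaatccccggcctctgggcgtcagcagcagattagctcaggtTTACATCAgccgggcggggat

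In Tnnt2 the E-box starts 211 bases before the start of transcription. Prc1 has CCAAT matches that start 239 and 50 bases before the start and TTTGAA 18 bases before it. Parp14, which fell from 21.9, 19.3 and 22.6 CPM to 10.8, 9.90 and 11.6 CPM, has the interferon element 76 bases before its start, and in Trib3 the core lies 21 bases before the start. Over the 300 bases from 250 before to 50 after the start, CAGCTG occurred in 15.1% of 27457 RefSeq promoters and in 25 of 75 promoters of sarcomere and calcium handling genes, which split into 12 of 37 called lower, 3 of 5 called higher and the rest not called. TTTGAA occurred in 18.1% of all promoters and in 18 of 26 mitosis genes (16 of 22 called higher), and CCAAT in 37.7% and in 20 of 26 (16 of 22 called higher). GAAANNGAA occurred in 9.5% of all promoters and in 20 of 30 interferon genes (4 of 8 called lower), and TGATGNAA in 3.82% and in 4 of 25 stress response genes (3 of 15 called higher). These counts describe letters in the sequence and were not tested.

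The direct test of Trim A against miR-125b, which differ by the 3′ adenosine, called few genes. Of 15115 genes tested, 69 were higher in Trim A (0.457%) and 63 were lower (0.417%) by edgeR at an adjusted p below 0.05 and 1.5-fold. Without Trim A 1 the counts were 283 and 692, and without any other library of either group they were 8 to 30 and 4 to 5. For 9295 genes, 61.5% of those tested, the 95% interval of the difference lay wholly within 1.5-fold. The remaining genes include 970 with a fitted difference of at least 1.5-fold that did not pass the test.

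Mitosis genes made up 15 of the 69 that were higher in Trim A than in miR-125b, and 0 of 29 were lower. The median difference over the 29 was 0.59 on the log2 scale, against 0.00014 over all genes. In all 29 every Trim A library lay above every miR-125b library, which was so for 14.3% of all tested genes. Kif11 read 45.4, 50.7 and 47.5 CPM in Trim A and 27.4, 27.6 and 29.2 CPM in miR-125b (log2 difference 0.77, 95% interval 0.60 to 0.93, edgeR adjusted p = 0.0059). Nek2, a centrosome kinase that is not on the list, read 12.7, 12.4 and 12.3 CPM against 5.81, 4.45 and 5.22 CPM (log2 difference 1.27, 95% interval 0.97 to 1.57). The number of mitosis genes called was 5 without Trim A 2, 2 without Trim A 3 and 0 without any of the 3 miR-125b libraries, and was 17 without Trim A 1. With the replicate number as a block it was 0.

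Usp15, a deubiquitinase, had the largest rise by the naming rule. It read 94.5, 116 and 108 CPM in Trim A and 18.4, 18.3 and 18.5 CPM in miR-125b, with no overlap, as the naming rule requires (log2 difference 2.52, 95% interval 2.32 to 2.73, edgeR adjusted p = 4.1e-05). In MC it read 63.4, 67.4 and 66.8 CPM, so that Trim A lay above the control and miR-125b below it. The mean was 38.5 ± 4.81 CPM with Plus A, 124 ± 17.4 CPM with Trim AG, and 104 ± 12.0 CPM in Trim AGU (SD, n = 3 each). Sept10, a septin, showed 87.0, 99.4 and 88.7 CPM in Trim A against 42.3, 41.7 and 39.5 CPM in miR-125b (log2 difference 1.15, 95% interval 0.98 to 1.33). Mff, a mitochondrial fission factor, had 2.92, 7.07 and 2.96 CPM against 40.8, 30.4 and 14.3 CPM, with wide spread in both groups. The other genes named for falls were Olfml2b (log2 difference -1.33, SE 0.26) and MGC94199 (-1.50, SE 0.24). Usp15 and Sept10 stayed called whichever library was left out, whereas Nek2, Mff, Olfml2b and MGC94199 were not called without miR-125b 2 or miR-125b 3.

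Few muscle genes were called between these mimics, with 1 thin filament gene higher, 1 lower and 0 of 16 thick filament genes by edgeR. Without Trim A 1, 3 thin filament genes and 6 thick filament genes were lower. Tnnt2 read 40.3, 39.9 and 42.1 CPM in miR-125b, and the log2 difference of Trim A was -0.50 (95% interval -0.65 to -0.35, edgeR adjusted p = 0.016), below the fold limit. Myog was lower in Trim A than in miR-125b, at 42.8, 39.6 and 40.1 CPM against 62.5, 62.0 and 61.4 CPM (log2 difference -0.60, 95% interval -0.75 to -0.46). Acta1 was higher, at 31.8, 31.9 and 29.6 CPM against 16.8, 18.8 and 19.1 CPM (log2 difference 0.77, 95% interval 0.59 to 0.94). The calls of thin filament and myogenic genes, Acta1 and Myog included, were lost without any 1 of the miR-125b libraries and with the replicate block. For the stress gene Trib3 the difference was 0.10 (95% interval -0.041 to 0.25), for Slc3a2 0.032 (95% interval -0.10 to 0.16) and for the interferon gene Parp9 -0.21 (95% interval -0.41 to -0.0098, edgeR adjusted p = 0.2). Those intervals lie inside 1.5-fold. Of 25 matrix genes 5 were lower in Trim A with all libraries, 15 without Trim A 1 and 0 without any other library. Of the reported miR-125b targets tested, 0 of 24 were called either way by edgeR, 2 were lower without Trim A 1, and DESeq2 called 1 lower.

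Trim AG lacks the next base as well. Trim AG against Trim A called 616 genes higher (4.03%) and 825 lower (5.4%) of 15284 tested, and without Trim A 1 the counts were 607 and 713. They were 382 and 408 without Trim AG 3 and 387 and 494 without Trim A 3. Of 29 mitosis genes 28 were higher in Trim AG and 0 lower (median difference 0.96, and 26 higher without Trim A 1). Prc1 read 191, 246 and 200 CPM in Trim AG and 86.6, 101 and 94.6 CPM in Trim A (log2 difference 1.17, 95% interval 0.89 to 1.45, edgeR adjusted p = 0.0011). Of 30 DNA replication genes 16 were higher (12 without Trim A 1), and of 28 interferon genes 12 were lower and 1 higher (9 and 0 without Trim A 1, and 4 to 7 lower without Trim A 2, Trim A 3, Trim AG 1 or Trim AG 3). Parp9 read 14.0, 14.2 and 13.3 CPM in Trim AG against 20.5, 21.5 and 21.2 CPM in Trim A (log2 difference -0.61, 95% interval -0.83 to -0.40).

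Muscle genes went both ways between Trim AG and Trim A. Myog was lower in Trim AG, at 11.5, 10.4 and 11.4 CPM (log2 difference -1.89, 95% interval -2.10 to -1.67). Acta1 was higher in Trim AG, at 176, 140 and 158 CPM against 31.8, 31.9 and 29.6 CPM (log2 difference 2.34, 95% interval 2.08 to 2.59), a level at which the MC libraries also lay. Lox, the lysyl oxidase that crosslinks collagen, was at 145, 117 and 130 CPM in Trim AG and at 758, 553 and 578 CPM in Trim A (log2 difference -2.28, 95% interval -2.62 to -1.93). Among genes named by size, Depdc1b was higher (7.5, 9.44 and 7.18 CPM against 2.73, 1.62 and 1.86 CPM) and Ogn, osteoglycin, was lower (0.28, 0.20 and 0.092 CPM against 2.92, 4.82 and 3.81 CPM). Katnal1, Mrpl30 and Brms1 were also named by size. They were unsteady among libraries of 1 group: Mrpl30 read 13.4, 27.7 and 11.8 CPM in Trim A but 17.2, 0.85 and 1.95 CPM in miR-125b. Trim AG libraries were deeper than the rest, and their mitochondrial shares of 3.52%, 5.29% and 4.57% for replicates 1, 2 and 3 ran like those of Trim A. In hypoxia Trim AGU the shares were 3.29%, 5.70% and 4.45% in the same order.

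**Figure D5:**
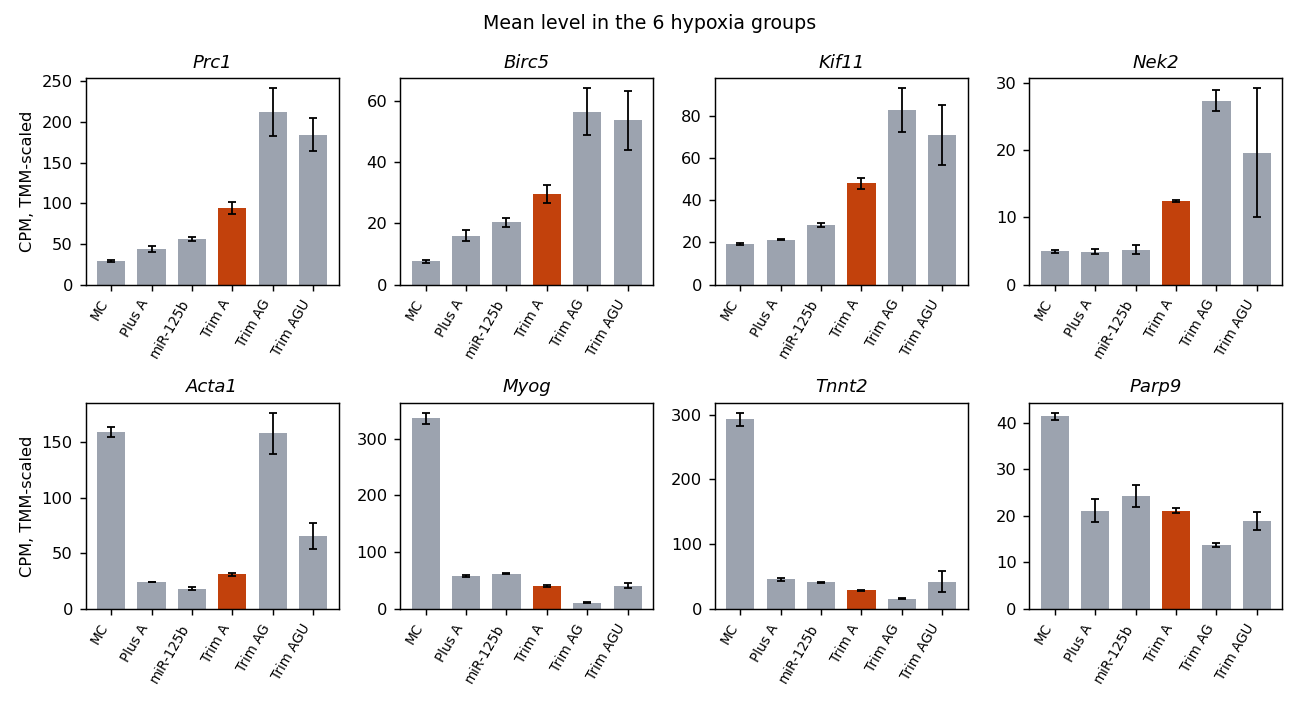
Mean TMM-scaled CPM (y axis, from 0) of 8 genes in the 6 hypoxia groups (x axis); bars are means of 3 libraries, error bars are the SD, and Trim A is in orange. Prc1, Birc5, Kif11 and Nek2 are higher in Trim A than in MC and higher still in Trim AG, Acta1 in Trim AG is at 158 CPM beside 159 CPM in MC, and Parp9 is at 21.1 CPM in Trim A and 41.5 CPM in MC.

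Against MC, the mimics' own values can be set side by side, with the reminder that all these comparisons share the MC libraries. Trim AGU 2 stood apart, with 16981 genes with counts against 18663 in Trim AGU 1 and 18455 in Trim AGU 3. Its distances from the Trim A libraries were 1.00 to 1.14, against 0.595 to 0.706 for Trim AGU 1 and 3. Trim AGU values were not computed without it. For the mitosis list the median log2 fold change was -0.019, 0.32, 0.89, 1.99 and 1.91 (Plus A, miR-125b, Trim A, Trim AG and Trim AGU in that order), with 4, 6, 25, 29 and 29 of 29 genes higher. For the thick filament the medians were -1.66, -2.05, -2.55, -2.95 and -2.39 in the same order. They rest on 19, 18, 19, 18 and 18 tested genes, so the sets are not identical. Of these, 13, 13, 13, 13 and 12 were called lower and 2, 4, 0, 0 and 0 higher. For the unfolded protein and amino acid responses they were 0.59, 0.58, 0.61, 0.82 and 0.74. For the matrix list they were -0.55, -0.42, -1.01, -1.33 and -1.18. For Myog the log2 fold changes against MC were -2.52, -2.42, -3.02, -4.90 and -3.02.

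Trim A cells kept in normoxia gave a further reference, from 3 libraries, for which no test was planned. Per the study's methods those cells had fresh DMEM, so medium and serum cannot be told apart from oxygen. Prc1 stood at 257 ± 7.48 CPM there and at 94.0 ± 7.10 CPM in hypoxia (mean ± SD, n = 3). Trib3 was at 123 ± 12.9 CPM in normoxia and 501 ± 21.1 CPM in hypoxia. Myog was at 55.4 ± 9.67 CPM and 40.8 ± 1.73 CPM. The normoxia MC libraries were not analysed here.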

How the data were processed

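Counts per gene of 33 of 36 libraries (11 groups of 3) were read from 11 of the 12 tables deposited by the authors. FPKM values were read only for the 6 hypoxia libraries of Trim A and MC. The authors made the counts from RNA-seq reads with HISAT2 and StringTie, per the labels, for which no version is given in the sources used here. The deposited FPKM are normalised by the authors per gene length and library size, and no result given here rests on them. Columns of the authors' own comparisons (fold changes and p-values) and 126 further per-library columns were not used. A gene left out of a table was given a count of 0 there. The tables name no genome build.

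Each pair of groups was fitted with edgeR 4.0.16 in R 4.3.3 (TMM, filterByExpr, quasi-likelihood test, Benjamini-Hochberg adjustment over all genes tested). A gene was called at an adjusted p below 0.05 and 1.5-fold. Levels are CPM on TMM factors of all libraries, and their scale is set by the total of mapped gene counts. The SE of a log2 fold change is its size divided by the root of the F statistic, and intervals are at 95%. DESeq2 1.42.0 was an alternative. The test scripts were tested on simulated data.

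The groups compared and the 35 gene lists (751 genes, 716 with a row) were chosen with earlier results of these data known. Named genes are those the paper names, 10 called genes in each direction, taken by size of change (mean of at least 1 CPM, no overlap, a proper symbol), up to 4 called members per list and direction by p, and 3 per direction of each direct test. Other list members given as examples were chosen after their values were seen. Where a symbol had several IDs, the one with the highest mean count was used, and 5 genes were found under older symbols. Sequences are from RefSeq (GRCr8), and no coordinates were moved between builds. The results of some genes are not reported here.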

Additional observations from a re-analysis of the deposited data

How the results depend on the processing

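The counts against MC stayed within 1.5 times of 1879 higher and 2385 lower under DESeq2, RLE size factors, testing of low-count genes too, a joint fit of all libraries and the gene-length correction, an alternative added after the data were seen. Leaving out each library in turn gave 1682 to 2246 and 2192 to 2829. A 2-fold limit gave 743 and 1263, and no fold limit gave 3943 and 3962. For Trim A against miR-125b, DESeq2 called 115 and 179 where edgeR called 69 and 63, all libraries in 1 fit called 121 lower, the gene-length correction 130 lower, a 2-fold limit 10 and 13, and no fold limit 192 and 139. Leaving out each library gave 8 to 283 and 4 to 692, the highest values without Trim A 1. For Trim AG against Trim A, leaving out each library gave 382 to 607 and 408 to 809, a 2-fold limit 210 and 354, and no fold limit 1118 higher. The causes were not tested. Dram2, which was not called, went from 0.095 to -0.012 with the gene-length correction. For 175 named genes against MC, 2051 of 2100 values kept their direction and their side of the threshold. Most of these genes were picked by size of change or p from the main fit of the same libraries. Their steadiness is therefore not independent support. The call was lost in at least 1 alternative for 24 of them.

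The replicate numbers met the criterion for pairing (every same-number correlation over 0.1) in none of the comparisons: the same-number correlations of deviations were -0.073, 0.043 and -0.059 for Trim A and MC, -0.10, -0.010 and 0.0035 for Trim A and miR-125b, and 0.33, 0.22 and -0.021 for Trim AG and Trim A, where numbers 1 and 2 ran together (different-number values of -0.31 and -0.24) and number 3 did not. A block on the replicate number gave 1787 and 2370 calls against MC, 6 and 1 against miR-125b and 790 and 1135 for Trim AG against Trim A. Seed matches in transcript ends were not run because no such annotation was used here. Genes under about 1 CPM rest on few counts.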

Other observations

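Other lists held counts of called genes above, near or under the shares of all tested genes (12.4% higher, 15.7% lower). Above them were 6 of 16 insulin-like growth factor genes and 5 of 20 cytokine and NF-kB genes lower. So were 4 of 16 caveolae and small GTPase genes and 5 of 22 immediate early genes higher. No list was tested as a set, so the genes are given as single values and nothing is read from the lists. Of 16 caveolae and small GTPase genes 4 rose and 3 fell (4 and 2 without Trim A 1): the GTPase Rac1 read 302, 311 and 302 CPM in Trim A and 149, 162 and 150 CPM in MC (log2 fold change 1.01, SE 0.067), and Cav3, the muscle caveolin, fell (-0.59, SE 0.12). Among 21 antioxidant genes 3 rose and 2 fell (5 and 2 without Trim A 1), with Gclc, the rate-limiting enzyme of glutathione synthesis, at 338, 378 and 375 CPM against 163, 160 and 158 CPM (log2 fold change 1.2, SE 0.072). Among 22 immediate early genes 5 rose and 1 fell (4 and 3 without Trim A 1): Klf2 rose (1.34, SE 0.075) and Jun fell (-0.71, SE 0.075). Of 27 cholesterol and fatty acid synthesis genes 3 rose and 2 fell (2 and 4 without Trim A 1).

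Of 16 genes of the insulin-like growth factor system 1 rose and 6 fell (1 and 8 without Trim A 1). Igf2 fell from 1171, 1199 and 1198 CPM to 786, 646 and 686 CPM (log2 fold change -0.74, SE 0.084) and -0.56 with the gene-length correction, and Igfbp5 read 94.6, 46.2 and 47.7 CPM against 339, 335 and 350 CPM. Of 20 cytokine and NF-kB genes 2 rose (Nfkb2 and Relb) and 5 fell, among them Il33 (-2.48, SE 0.16). Of 26 TGF-beta and BMP genes 3 rose and 4 fell (1 and 5 without Trim A 1), with the receptor Tgfbr2 at -1.45 (SE 0.13). Of 21 genes of microRNA processing and action 2 rose and 3 fell, and the exonuclease Dis3l2 read 7.61, 6.60 and 6.94 CPM against 16.8 CPM in each MC library. Of 28 respiratory chain genes 2 rose and 0 fell, and 9 rose without Trim A 1. With no fold limit 18 of them passed the adjusted p with a rise, beside 3943 of all 15183 tested genes. With the gene-length correction 1 rose, and the list median went from 0.378 to 0.252. Of 21 genes of mitochondrial dynamics and mitophagy 3 rose and 4 fell.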
